A study of Homo sapiens with 8 samples.

Results

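MHC class I presentation and PD-L1 were examined through 9 genes, namely HLA-B, HLA-C, HLA-E, B2M, TAP1, TAPBP, NLRC5, PSMB9 and CD274, which were listed by name and function, with earlier results of these data known. A row of the count table was matched to 8 of the 9 by Ensembl identifier, out of 37441 rows in all. TAP1 had no row under its identifier of the main assembly, so its RNA level is not given here. The counts came from 8 RNA-seq libraries of NCI-H1581 and NCI-H1703, established lung cancer lines (non-small cell) sensitive to inhibitors of the fibroblast growth factor receptor (FGFR). NCI-H1581 and NCI-H1703 were the sensitive variants. NCI-H1581R and NCI-H1703R were resistant variants derived from them by culture in the FGFR inhibitor CPL304110, raised from 50 nM to a final 2.5 µM for NCI-H1581R and 5 µM for NCI-H1703R over 4 to 6 months. Each variant had 2 replicates, from repeated seeding and harvest 24 h after a medium change, and the sources describe 1 selected variant per line, so that its replicates are not independent selections. NCI-H1581 was kept in DMEM/F12 and NCI-H1703 in RPMI 1640, so that line and medium cannot be told apart. The sources used here do not say whether the inhibitor was present during the last medium change.

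MHC class I molecules show peptides from inside the cell to CD8 T cells. A heavy chain (HLA-B, HLA-C or the less variable HLA-E, which is also read by the NKG2A receptor of natural killer cells) pairs with beta-2 microglobulin, the product of B2M. Peptides are cut by the proteasome, whose inducible subunit PSMB9 replaces a constitutive subunit in the immunoproteasome, are carried into the endoplasmic reticulum by the transporter made of TAP1 and TAP2, and are loaded onto the heavy chain with the help of tapasin, encoded by TAPBP. NLRC5 is the transactivator of class I genes and acts at a promoter module shared by heavy chains and B2M, while interferon regulatory factors act at interferon response elements. CD274 encodes PD-L1, the ligand of the inhibitory receptor PD-1 of T cells.

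The promoter sequences of HLA-B, B2M, TAPBP and CD274 are shown. These genes stand for the heavy chains, the light chain, the loading machinery and the checkpoint ligand. The mean counts per kilobase of HLA-B, B2M and TAPBP were ordered differently in the cell lines, and CD274 was below them in each variant. Each run holds the 250 bases before the RefSeq transcription start (GRCh38.p14), written 5′ to 3′ on the strand of the gene, with matches on either strand in capitals. The motifs searched were an interferon response element core in 2 forms, GAAANNGAA and GAANNGAAA, which can overlap, the Y box letters CCAAT and the letters TGACG of the X2 box or CRE.
HLA-B, chr6:31357180-31357429, minus strand: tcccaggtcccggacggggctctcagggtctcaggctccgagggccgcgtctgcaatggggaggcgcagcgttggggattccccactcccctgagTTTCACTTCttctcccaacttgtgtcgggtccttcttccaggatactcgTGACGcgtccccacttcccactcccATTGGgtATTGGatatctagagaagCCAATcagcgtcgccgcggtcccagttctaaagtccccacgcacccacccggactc
B2M, chr15:44711267-44711516, plus strand: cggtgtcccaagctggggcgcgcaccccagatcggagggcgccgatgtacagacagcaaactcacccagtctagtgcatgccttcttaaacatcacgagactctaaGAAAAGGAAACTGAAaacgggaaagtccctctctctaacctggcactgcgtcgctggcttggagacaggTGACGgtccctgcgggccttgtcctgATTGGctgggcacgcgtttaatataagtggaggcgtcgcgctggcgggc
TAPBP, chr6:33314079-33314328, minus strand: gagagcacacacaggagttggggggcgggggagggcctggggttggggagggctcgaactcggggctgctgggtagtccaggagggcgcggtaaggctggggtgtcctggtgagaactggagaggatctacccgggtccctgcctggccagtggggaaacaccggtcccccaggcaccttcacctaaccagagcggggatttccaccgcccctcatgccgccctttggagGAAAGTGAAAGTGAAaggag
CD274, chr9:5450292-5450541, plus strand: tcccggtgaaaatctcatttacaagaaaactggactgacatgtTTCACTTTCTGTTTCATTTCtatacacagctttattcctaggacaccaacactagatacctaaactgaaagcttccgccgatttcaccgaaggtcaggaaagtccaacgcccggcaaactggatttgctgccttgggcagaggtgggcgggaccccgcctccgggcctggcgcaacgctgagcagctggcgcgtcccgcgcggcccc
Of 35116 promoters of the same length, 6.88% held GAAANNGAA, 6.555% GAANNGAAA, 32.01% CCAAT and 21.22% TGACG. HLA-B held 1 match of the second interferon form, 3 of CCAAT and 1 of TGACG. HLA-C, with its own promoter, held 1, 4 and 1 of the same motifs. B2M held 2 overlapping matches of the first interferon form, 1 of CCAAT and 1 of TGACG. TAPBP held 2 overlapping matches of the first interferon form and neither of the other letters. CD274 held 2 of the first form and 1 of the second. PSMB9 held 1 match of CCAAT and 1 of TGACG. TAP1 held 2 matches of the first interferon form at the first of its listed starts. A match describes letters in this window and is not a bound site. HLA-E and NLRC5 are named only.

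The genes lie on GRCh38 at chr6:31353872-31367067 (HLA-B), chr6:31268749-31272130 (HLA-C), chr6:30489509-30494194 (HLA-E), chr6:33299694-33314284 (TAPBP), chr6:32844136-32859851 (PSMB9), chr6:32845209-32853816 (TAP1), chr15:44711358-44718851 (B2M), chr16:56989485-57083531 (NLRC5) and chr9:5450503-5470566 (CD274). All counts are sums over the transcripts of a gene. Library totals ranged from 33800389 to 40031710 counts, and 3 counts, used as the floor that a count of 0 allows, stood for 0.0749 to 0.0897 CPM (counts scaled to library size). Of the 10 epithelial markers, 9 were above that floor in both replicates of NCI-H1581, NCI-H1581R and NCI-H1703 and 8 in NCI-H1703R, and their summed level was 44.3 to 45.6, 84.5 to 109.1, 79.8 to 81.0 and 11.1 to 13.3 CPM in the same order. Few genes set these sums. KRT18 made up most of the NCI-H1703 level (mean 64.88 CPM, against 2.681 in NCI-H1703R). It was the 1 marker of the 10 called in that line with resistance, where 14.7% of all genes were called. In NCI-H1581R, NKX2-1 (mean 14.28 to 49.78 CPM) and TP63 (6.027 to 29.49) were called higher, whereas EPCAM (14.51 to 7.713) was called lower. The other markers of the 10 were not called there, where 15.1% of all genes were called. The 10 leukocyte markers summed to at most 7.65 CPM in any library, and CD3E, which defines T cells, was at 0 in all of them. The 8 fibroblast and endothelial markers summed to 2257 to 2541 CPM in NCI-H1581, 1016 to 1035 in NCI-H1581R, 2.99 to 3.43 in NCI-H1703 and 24.3 to 28.1 in NCI-H1703R. COL1A2 made up most of this in NCI-H1581 (mean 2186 CPM) and NCI-H1581R (992.1). In NCI-H1703R most of it was COL1A1, with 39 and 30 counts in NCI-H1703 and 999 and 827 in NCI-H1703R. COL1A1 was the 1 of 7 tested markers called there with resistance, where 14.7% of all genes were called. In NCI-H1581R, 4 of the 7 were called lower and 0 higher, where 15.1% of all genes were called. Among the 4, DCN went from 1647 and 1737 counts in NCI-H1581 to 9 and 3 in NCI-H1581R. LUM went from 3324 and 4275 to 11 and 29. The part of these marker levels in the results was not tested.

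The rows of the 6p21.3 members need care before their levels are read. GRCh38 carries 7 alternative contigs of this region, and the principal transcript of HLA-B, HLA-C, PSMB9 and TAP1 aligned to all 7 of them. That of HLA-E aligned to 6 and that of TAPBP to 4. B2M, NLRC5 and CD274 lie on other chromosomes and aligned to none, and no contigs of those chromosomes were searched. The copies of HLA-E on these contigs were 99.88% to 100.0% identical to its transcript, those of PSMB9 99.61% to 100.0%, those of TAPBP 99.6% to 100.0%, those of HLA-B 88.36% to 98.57% and those of HLA-C 87.2% to 99.74%. In the interval from HLA-F to TAPBP (chr6:29722775-33314284), 18 of 149 protein-coding genes (12.08%) had no row under the identifier of the main assembly, against 3.437% on the rest of chromosome 6. Among those with a row, 26 of 131 (19.85%) had 0 counts in all libraries, against 11.94% on the rest of chromosome 6. In 11 of 131 (8.397%) a replicate was listed at 0 while the other replicate of its variant had at least 100 counts, against 0.2296% on the rest of chromosome 6 and 0.1789% on other chromosomes. DAXX, a chromatin protein gene beside TAPBP, had 3361 to 4931 counts in the NCI-H1581 libraries and 25, 0, 0 and 0 in those of NCI-H1703 and NCI-H1703R. RXRB, a nuclear receptor gene also near TAPBP, showed the reverse, with 0 in the 4 libraries of NCI-H1581 and NCI-H1581R and 513 to 611 in the others (this pair of genes was picked with its values in view). The table also held 2946 rows without a gene in GENCODE v44, with 1.942% to 2.492% of the counts per library. How reads were shared between copies was not tested, so each 6p21.3 value below is a count under the identifier of the main assembly and may be part of the gene's RNA. HLA-B and HLA-C transcripts were 92.51% identical to each other, so reads can also be split between them.

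**Figure D1:**
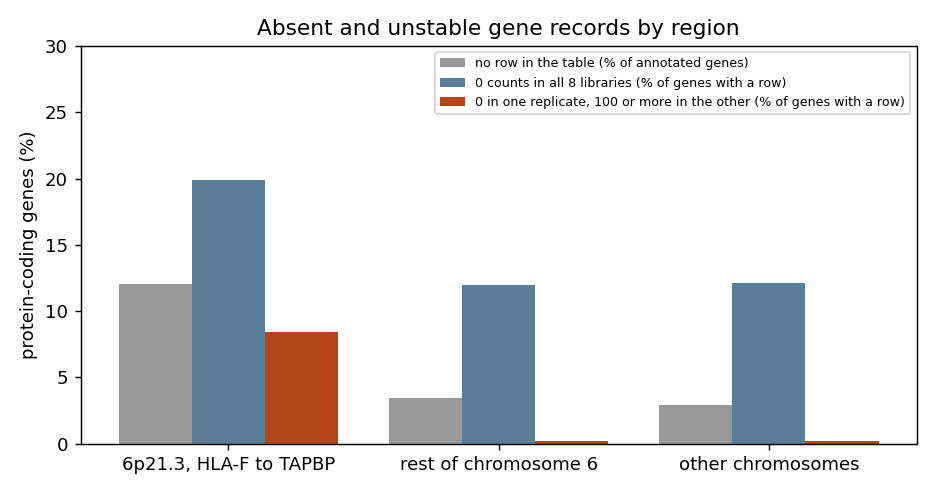
Share of protein-coding genes (y axis, %) without a row, with 0 counts in all 8 libraries, or with 0 counts in a replicate and at least 100 in its partner, for the 6p21.3 interval, the rest of chromosome 6 and the other chromosomes (x axis). The 6p21.3 bars are the highest for each measure, at 12.08%, 19.85% and 8.397%.

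The heavy chain genes and B2M were far higher in NCI-H1703 than in NCI-H1581, before and after selection. In NCI-H1581 the HLA-B count was 39 and 31, in NCI-H1581R it was 40 and 53, against 2743 and 2313 in NCI-H1703 and 3166 and 3501 in NCI-H1703R. The lines did not overlap, and between the sensitive variants the difference was 75.1-fold (log2 fold change 6.23 ± 0.19 SE, adjusted p = 3.02e-07). HLA-C had 45 and 86 counts in NCI-H1581, 121 and 64 in NCI-H1581R, 11783 and 10778 in NCI-H1703 and 12727 and 15203 in NCI-H1703R. It was 180.3-fold higher in NCI-H1703 than in NCI-H1581 (log2 fold change 7.49 ± 0.18, adjusted p = 1.04e-07). HLA-E had 1374 and 1438, then 1330 and 1166 counts in the NCI-H1581 variants, and 5494 and 5201, then 9963 and 10765 in those of NCI-H1703. Its difference between the sensitive variants was 3.97-fold (log2 1.99 ± 0.11, adjusted p = 4.45e-06), smaller than that of the other heavy chains by its values. B2M, which lies outside the MHC, had 824 and 1030 counts in NCI-H1581, 1356 and 838 in NCI-H1581R, 7897 and 7236 in NCI-H1703 and 8221 and 9539 in NCI-H1703R. B2M was 8.56-fold higher in NCI-H1703 than in NCI-H1581 (log2 3.10 ± 0.11, adjusted p = 4.76e-07). Per kilobase of transcript, HLA-C stood at 0.911 to 0.975 of B2M in the libraries of NCI-H1703 and NCI-H1703R and at 0.0334 to 0.0546 in those of NCI-H1581 and NCI-H1581R.

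**Figure D2:**
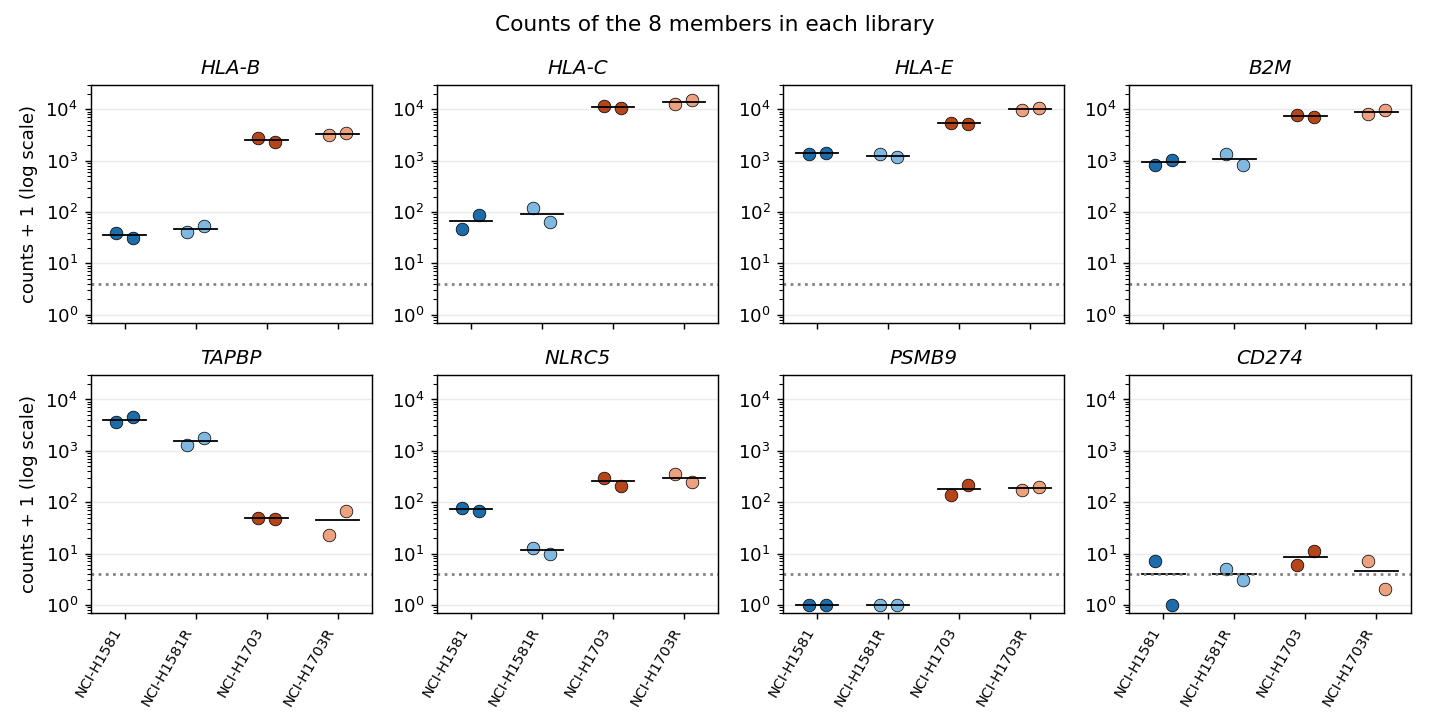
Counts plus 1 (y axis, log scale) of the 8 members with a row in each of the 4 variants (x axis). Points are the 2 replicates, the black line is their mean, and the dotted line is the floor of 3 counts. HLA-B, HLA-C, HLA-E, B2M, NLRC5 and PSMB9 sit higher in both NCI-H1703 variants, TAPBP sits higher in both NCI-H1581 variants, and CD274 stays at 10 counts or fewer.

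The processing and loading genes did not share a direction between the lines. TAPBP had 3593 and 4481 counts in NCI-H1581 and 1284 and 1789 in NCI-H1581R, but 49 and 47 in NCI-H1703 and 22 and 66 in NCI-H1703R. NCI-H1703 was 80.0-fold lower than NCI-H1581 (log2 fold change -6.32 ± 0.17, adjusted p = 1.61e-07), in the same libraries in which its neighbour DAXX was at or near 0. PSMB9 was listed at 0 in the 4 libraries of NCI-H1581 and NCI-H1581R and had 140 and 212 counts in NCI-H1703 and 173 and 200 in NCI-H1703R. Both comparisons between the lines called it higher in the NCI-H1703 variants (adjusted p = 0.000655 for the sensitive and 0.0017 for the resistant variants), and no fold is given against libraries at 0. PSMB8, its partner in the immunoproteasome, was also listed at 0 in the NCI-H1581 variants and had 227, 309, 0 and 275 counts in the NCI-H1703 and NCI-H1703R libraries. PSMB10, the inducible subunit encoded outside the MHC, had 884 to 1552 counts in all 8 libraries and was not called between the sensitive variants (log2 fold change -0.23 ± 0.12, adjusted p = 0.146). In NCI-H1703, PSMB9 reached 0.0176 and 0.0256 per kilobase of the level of PSMB6, the constitutive subunit it replaces. TAP2, the partner of TAP1 in the transporter, had 94, 62, 0 and 95 counts in the NCI-H1581 and NCI-H1581R libraries and 0 in the other 4.

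NLRC5, the transactivator, was low in all libraries and differed between the lines and with resistance. It had 75 and 67 counts in NCI-H1581, 12 and 9 in NCI-H1581R, 301 and 204 in NCI-H1703 and 351 and 245 in NCI-H1703R. The 4 NCI-H1703 libraries were above the 4 NCI-H1581 libraries, by 3.70-fold between the sensitive variants (log2 1.89 ± 0.29, adjusted p = 0.00112) and by 29.3-fold between the resistant ones (log2 4.87 ± 0.46, adjusted p = 0.000898). CD274 had 6, 0, 4 and 2 counts in the NCI-H1581 and NCI-H1581R libraries and 5, 10, 6 and 1 in those of NCI-H1703 and NCI-H1703R. The variants overlapped, no comparison called it (lowest unadjusted p of 0.288 in edgeR), and the highest library was at 0.299 CPM. Its log2 difference between the sensitive variants was 1.35 ± 1.30, and it moved to 0.25 without replicate 2 of NCI-H1581 and to 6.00, then called (adjusted p = 0.0814), without replicate 1, which left 0 counts in that variant. With all libraries, a difference in PD-L1 RNA was not detectable at this depth.

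Of the 8 members, 6 were called higher and 1 lower in NCI-H1703 than in NCI-H1581, where 62.9% of the 18203 genes tested were called at an adjusted p under 0.1. The same split of 6 higher and 1 lower was found between NCI-H1703R and NCI-H1581R, where 52.5% of genes were called. A call between these lines was thus common among all genes. The members' median log2 difference was 2.54 for the sensitive and 3.99 for the resistant variants, against 0.044 and 0.0 over all genes. CD274 was the member without a call in both.

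Ordered per kilobase of the principal transcript, B2M and HLA-C were the highest members in NCI-H1703, at 227.9 ± 2.2 and 207.8 ± 1.7 CPM per kilobase (SD, n = 2), followed by HLA-E (59.7 ± 1.9), HLA-B (46.6 ± 2.3), PSMB9 (4.98 ± 1.78), NLRC5 (1.05 ± 0.21), TAPBP (0.396 ± 0.017) and CD274 (0.0597 ± 0.0319). In NCI-H1703R the order was the same, but B2M (230.5 and 267.0) and HLA-C (218.2 and 260.2) overlapped. In NCI-H1581, TAPBP (31.7 ± 1.1) and B2M (26.6 ± 0.9) came before HLA-E (15.1 ± 1.4), and HLA-C (1.13 ± 0.37), HLA-B (0.629 ± 0.176), NLRC5 (0.287 ± 0.058) and CD274 (0.0245 ± 0.0346) followed. In NCI-H1581R, B2M (30.4 ± 11.1) led, HLA-E (11.6 and 13.9) and TAPBP (9.89 and 13.2) overlapped, and NLRC5 stood at 0.0404 ± 0.0094.

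With resistance in NCI-H1581, TAPBP and NLRC5 fell while the heavy chains and B2M were not called. In NCI-H1581R, TAPBP fell 2.72-fold (log2 fold change -1.45 ± 0.20, adjusted p = 0.00612), and the replicates of the variants did not overlap. NLRC5 fell 6.96-fold (log2 -2.80 ± 0.57, adjusted p = 0.0277), from a mean of 1.95 ± 0.39 to 0.274 ± 0.064 CPM. Without replicate 1 of NCI-H1581 the adjusted p of NLRC5 was 0.111, and with a minimum of 10 counts in every library NLRC5 was not tested. HLA-B (log2 0.35 ± 0.49, adjusted p = 0.725), HLA-C (0.45 ± 0.49, adjusted p = 0.643), HLA-E (-0.23 ± 0.18, adjusted p = 0.512) and B2M (0.20 ± 0.27, adjusted p = 0.715) did not pass the test. The replicates of HLA-B, HLA-C and B2M overlapped in CPM between the variants, whereas HLA-E, at 40.8 and 35.9 CPM in NCI-H1581 and 35.3 and 29.6 in NCI-H1581R, did not. The value of B2M turned to -0.22 without replicate 1 of NCI-H1581R, and without replicate 2 it was 0.51 and called (adjusted p = 0.0768). So 2 of the 7 members that could be evaluated were called, both lower, where 15.1% of all genes were called. The median log2 fold change was -0.05 over these members and 0.04 over all genes.

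NLRC5 was not the only gene of its neighbourhood to fall in NCI-H1581R. Of 10 genes around it on 16q13, 9 were called lower and none higher, where 15.1% of all genes were called in either direction, with a median log2 fold change of -0.77. COQ9, needed for coenzyme Q synthesis, fell most among them (log2 -1.40 ± 0.17, adjusted p = 0.00337), from 2291 and 2444 to 946 and 922 counts. CIAPIN1, which serves iron-sulphur cluster assembly, fell by 0.98 on the log2 scale (adjusted p = 0.0387). The fall of NLRC5 was larger than that of each of the 10 by its estimate, with a standard error of 0.57, and the difference was not tested. In NCI-H1703R, 3 of the 10 were called higher and none lower, where 14.7% of all genes were called. Among the 3 were DOK4, a docking protein gene (log2 0.56 ± 0.12, adjusted p = 0.0489), and HERPUD1, a gene of the unfolded protein response (0.47 ± 0.10, adjusted p = 0.0413). DNA copy number at 16q13 was not analysed here, and its part was not tested. Around CD274 on 9p24.1, 2 of 10 genes were called higher in NCI-H1581R, including RIC1, a trafficking gene (log2 1.13 ± 0.17, adjusted p = 0.00884), while CD274 itself stayed at 2 and 4 counts. Around B2M on 15q21.1, none of the 9 genes tested was called by edgeR in either line (1 gene had an unadjusted p under 0.05 and DESeq2 called 1, both in NCI-H1703R, and none in NCI-H1581R).

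**Figure D3:**
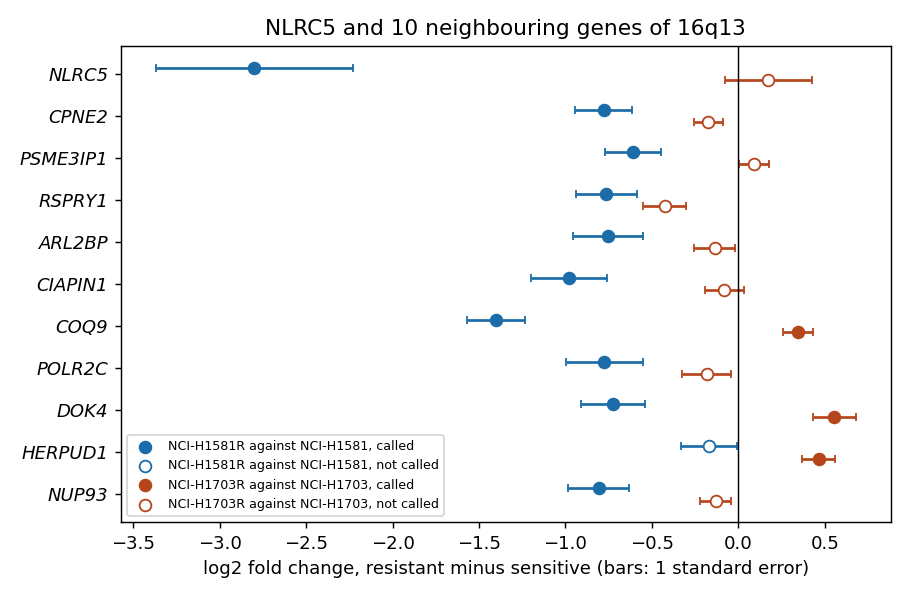
Log2 fold change with resistance (x axis, bars of 1 standard error) of NLRC5 and 10 genes around it on 16q13 (y axis) in NCI-H1581 (blue) and NCI-H1703 (orange), filled where called. In NCI-H1581R, NLRC5 lies at -2.80 and 9 of its neighbours are called lower, whereas 3 neighbours are called higher in NCI-H1703R.

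With resistance in NCI-H1703, HLA-E rose and HLA-B rose by less. HLA-E rose 1.84-fold, from 148.5 and 155.5 to 263.4 and 284.1 CPM (log2 0.88 ± 0.09, adjusted p = 0.00528). This call was lost when either NCI-H1703 replicate was left out, with an adjusted p of up to 0.131. HLA-B rose 1.25-fold (log2 0.33 ± 0.09, adjusted p = 0.0914), a call close to the threshold that was lost with RLE normalisation, without the filter on low counts, in a single fit of all 8 libraries and without any of the 4 replicates. HLA-C was not called (log2 0.23 ± 0.11, adjusted p = 0.269), although the replicate number as a block called it (adjusted p = 0.0266) and lowered that of HLA-B to 0.00812. B2M (0.16 ± 0.10, adjusted p = 0.419), NLRC5 (0.17 ± 0.25, adjusted p = 0.744), PSMB9 (0.00 ± 0.30, adjusted p = 1.0), TAPBP (-0.20 ± 0.55, adjusted p = 0.892) and CD274 (-1.14 ± 0.98, adjusted p = 0.548) were not called. Thus 2 of 8 members were called, both higher, where 14.7% of all genes were called.

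**Figure D4:**
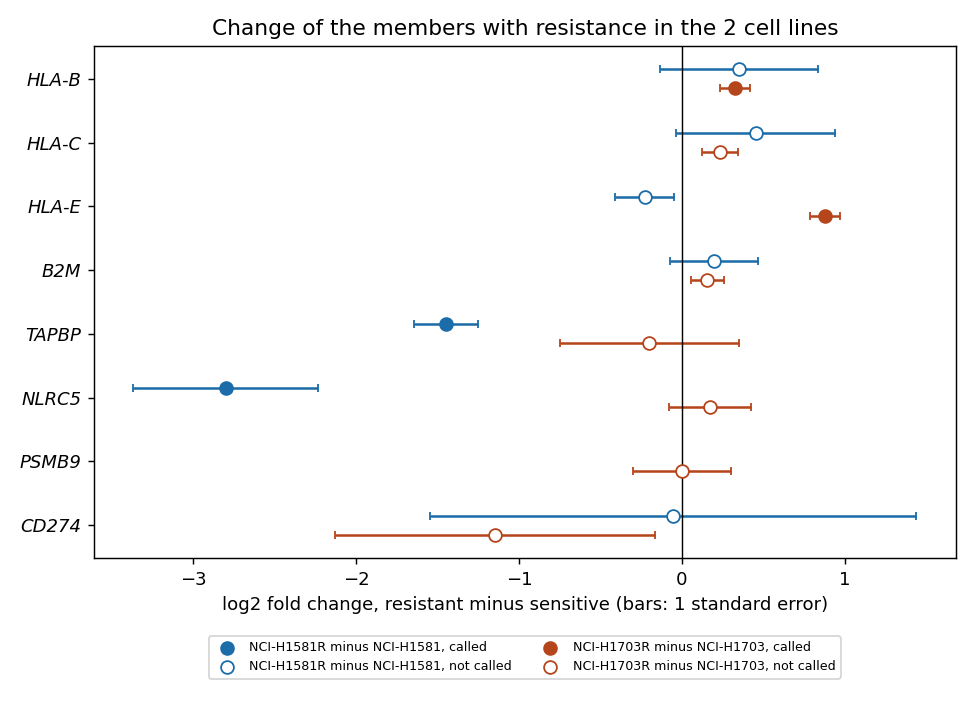
Log2 fold change with resistance (x axis, bars of 1 standard error) of the members (y axis) in NCI-H1581 (blue) and NCI-H1703 (orange), filled where the adjusted p was under 0.1. TAPBP and NLRC5 are filled on the lower side in NCI-H1581, HLA-E and HLA-B on the higher side in NCI-H1703, and PSMB9 has no value in NCI-H1581.

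Whether the lines differed in their response to selection was tested directly, as an interaction of line and variant. The interaction was called for HLA-E (log2 1.09 ± 0.19 higher change in NCI-H1703, adjusted p = 0.00861) and for NLRC5 (2.95 ± 0.64, adjusted p = 0.0226), that is, for 2 of 7 members, where 15.4% of all genes were called. Both calls held without each of the 8 replicates in turn, with an adjusted p of at most 0.0538 for HLA-E and 0.0853 for NLRC5. TAPBP did not pass (1.23 ± 0.54, adjusted p = 0.223), though DESeq2 gave an adjusted p of 0.0686, and its value depended on NCI-H1703R, at 1.81 and called (adjusted p = 0.0632) without replicate 1 and at 0.23 without replicate 2. With all libraries its fall in NCI-H1581R is not shown to differ from the value in NCI-H1703R. HLA-B (-0.05 ± 0.35), HLA-C (-0.24 ± 0.42) and B2M (-0.06 ± 0.31) had standard errors above the size of the difference.

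The other genes of the pathway moved in both directions. Among 7 loading and trimming genes, 1 was called higher and 2 lower in NCI-H1581R, where 15.1% of all genes were called. ERAP1, an aminopeptidase that trims peptides in the endoplasmic reticulum, rose from 1808 and 2234 to 8683 and 7567 counts (log2 1.96 ± 0.18, adjusted p = 0.00101), to about the counts of NCI-H1703 (6585 and 6718). CALR, encoding the chaperone calreticulin of the loading complex, fell (log2 -0.91 ± 0.21, adjusted p = 0.0433). TAPBPL, encoding the tapasin-related peptide editor, fell from 142 and 145 to 20 and 28 counts (log2 -2.63 ± 0.42, adjusted p = 0.0114, picked with its values in view because it was below 5 CPM) but rose in NCI-H1703R from 419 and 412 to 719 and 658 (log2 0.65 ± 0.14, adjusted p = 0.0431). TAPBPL lies outside 6p21.3, on chromosome 12, and like TAPBP and NLRC5 it was lower in NCI-H1581R. The authors reported a lower DNA copy number in NCI-H1581R over large parts of several chromosomes. Those of TAPBP and TAPBPL were among them, and that of NLRC5 was not listed. Copy number at these genes was not analysed here, and its part was not tested. ERAP2, the second trimming enzyme, had 14 and 16 counts in NCI-H1581 and 3133 and 3097 in NCI-H1703 (log2 7.75 ± 0.21, adjusted p = 2e-07).

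Of 11 regulators of class I promoters, 6 were called higher and 2 lower in NCI-H1703 than in NCI-H1581, a share near the 62.9% of all genes called. IRF1, the interferon regulatory factor that binds the response element, had 169 and 215 counts in NCI-H1581 and 3054 and 2847 in NCI-H1703 (log2 4.01 ± 0.14, adjusted p = 4.6e-07) and was not called with resistance in either line. RELA, a subunit of NF-kappaB, was the regulator called in NCI-H1581R, where it fell (log2 -0.72 ± 0.16, adjusted p = 0.0388). NFYB, a subunit of the factor that binds CCAAT, fell in NCI-H1703R (log2 -0.66 ± 0.09, adjusted p = 0.0135), where 2 of the 11 were called lower. Of 10 genes of the interferon gamma receptor and its JAK-STAT route, 1 rose and 1 fell in NCI-H1581R, and 2 rose and 1 fell in NCI-H1703R, where 15.1% and 14.7% of all genes were called. JAK1, a kinase of this route, rose in NCI-H1581R (0.63 ± 0.17, adjusted p = 0.0683) and NCI-H1703R (0.64 ± 0.12, adjusted p = 0.032). The receptor gene IFNGR1 rose in NCI-H1703R (0.44 ± 0.11, adjusted p = 0.0633), where SOCS3, a feedback inhibitor of JAK signalling, fell (-1.39 ± 0.15, adjusted p = 0.00585). Without either replicate of the sensitive variant the calls of RELA, NFYB, JAK1, IFNGR1 and SOCS3 with resistance were lost, as was that of CALR. Leaving out a replicate also cost the calls of CMTM4, CIAPIN1 and RIC1 in NCI-H1581R in at least 1 of 4 fits. The same held for TAPBPL, HERPUD1 and MR1 in NCI-H1703R and for HFE in both resistant variants. The call of DOK4 in NCI-H1703R was lost in all 4 fits.

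Among class I-like heavy chains, MR1, which presents microbial metabolites, rose in NCI-H1703R together with HLA-E (log2 1.32 ± 0.15, adjusted p = 0.00629), and HFE, a regulator of iron uptake that pairs with beta-2 microglobulin, rose there (0.64 ± 0.12, adjusted p = 0.0309) and fell in NCI-H1581R (-0.78 ± 0.23, adjusted p = 0.0851). Beside CD274, CD276, encoding the checkpoint molecule B7-H3, had 11390 to 11908 counts in the NCI-H1581 and NCI-H1581R libraries and 6709 to 8320 in the others. CD47, the anti-phagocytic ligand, was higher in NCI-H1703 than in NCI-H1581 (log2 2.50 ± 0.15, adjusted p = 7.26e-06). CMTM4, which stabilises PD-L1 protein, was the 1 gene of 7 evaluated checkpoint ligands and stabilisers called in NCI-H1581R, where it fell (-0.65 ± 0.16, adjusted p = 0.0539), a share near the 15.1% of all genes. None of the 8 evaluated was called by edgeR in NCI-H1703R (1 had an unadjusted p under 0.05 and DESeq2 called 0). ULBP1, a stress ligand of the natural killer receptor NKG2D, rose in NCI-H1581R from 184 and 209 to 682 and 1224 counts (log2 2.22 ± 0.32, adjusted p = 0.00757). It was the 1 called of 5 NKG2D ligands, and the list's median log2 fold change was -0.90, with values below 0 for MICB (-0.94 ± 0.32, adjusted p = 0.127), ULBP2 (-0.74 ± 1.88, adjusted p = 0.866) and ULBP3 (-0.90 ± 0.37, adjusted p = 0.199), while MICA had 3 and 75 counts in NCI-H1581 and 0 in NCI-H1581R. Class II genes were low, with at most 49 counts in a library for each of the 6 tested.

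The genes whose profile over the 8 libraries was most like that of a member were taken by the root mean square difference of centred log2 CPM. They were MAP3K20 (0.15), RASSF8 (0.33) and LEPR (0.35) for HLA-B, CAP2 (0.16), UPP1 (0.19) and NEDD4L (0.21) for B2M, and RASSF8 (0.30), MAP3K20 (0.31) and JAZF1 (0.36) for PSMB9. The likeness is a description over 8 libraries of 2 lines and rests mostly on the difference between the lines. For CD274 the nearest gene, KLF2, was at 0.58, and its profile rests on 10 counts or fewer per library.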

How the data were processed

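RNA-seq libraries of 2 replicates of each of 4 variants were analysed. The authors quantified paired reads of 100 bp with Salmon against GRCh38 and imported them with tximport. Per the file headers and values, the authors deposited estimated counts, rounded to whole numbers and without normalisation. The transcript set, the tximport scaling and strandedness are not given in the sources used here. All 8 columns were used, grouped by the labels. Symbols and positions came from GENCODE 44, and promoters from RefSeq (GRCh38.p14), with entries for 7 of the 9 members.

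Fold changes, standard errors and two-sided p-values came from edgeR 4.0.16 in R 4.3.3 (TMM, quasi-likelihood test), in the 4 libraries of each comparison (2 residual degrees of freedom), or all 8 for the interaction, for the 18203 genes with at least 10 counts in total. Genes were called at a Benjamini-Hochberg adjusted p under 0.1 over all genes tested. Reported CPM use TMM factors over all 8 libraries. The edgeR fit was also run on simulated counts, with changes set only in genes of higher counts, so that run does not cover CD274. Its outcome is not given here. Contigs were searched with minimap2 2.31-r1302, with at least 90% of a transcript aligned. Replicates differed by more than sampling noise (chi-square per degree of freedom 23.3 to 96.8). The labels number the replicates and the culture notes say that the experiment was repeated for the second. Same-numbered libraries deviated together within a line, with a Pearson r across genes of 0.261 for NCI-H1581 variants and 0.569 for NCI-H1703 variants. Variants of different lines also shared deviations, in the opposite direction for NCI-H1581R with NCI-H1703R (r = -0.557) and with NCI-H1703 (-0.35). For the sensitive NCI-H1581 the values were 0.0714 with NCI-H1703 and -0.129 with NCI-H1703R. Whether a shared replicate number marks a shared batch was not tested.

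Alternatives were DESeq2 1.42.0, RLE normalisation, other filters, a replicate block, a fit of all 8 libraries, a threshold of 0.05, CPM without TMM, other transcript lengths and leaving out each replicate, and legacy quasi-dispersions were added after seeing the data. Members and gene lists were chosen with earlier results of these data known. All members were named, and from each list at most the 2 largest called rises and falls per comparison with at least 5 CPM in a group, besides partners of members and the genes said to be chosen later. Some genes of these lists are not reported here.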

Additional observations from a re-analysis of the deposited data

Results flagged for a closer look

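The change with resistance differed between the lines, by the interaction test in edgeR, for HLA-E (log2 difference 1.09, NCI-H1703 minus NCI-H1581, adjusted p = 0.00861) and NLRC5 (2.95, adjusted p = 0.0226). Among other genes named in the report it differed for the loading and trimming genes TAPBPL (3.26, adjusted p = 0.000792), ERAP1 (-1.92, adjusted p = 0.000521) and CALR (0.81, adjusted p = 0.046), for the class I-like HFE (1.397, adjusted p = 0.00624), for the signalling and promoter genes SOCS3 (-1.66, adjusted p = 0.00305), RELA (0.72, adjusted p = 0.0315) and NFYB (-0.82, adjusted p = 0.0733), and for the 16q13 genes COQ9 (1.72, adjusted p = 0.000455) and DOK4 (1.26, adjusted p = 0.00702). The same test also called ERAP2 (-1.61, adjusted p = 0.0347), RIC1 (-0.83, adjusted p = 0.0218) and HERPUD1 (0.61, adjusted p = 0.0468). CIAPIN1 (0.88, adjusted p = 0.0815) and CMTM4 (0.58, adjusted p = 0.0861) were called closer to the threshold.

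Outside the comparisons, 428 rows of the table without a gene in GENCODE v44 had at least 1000 counts summed over the libraries. Of these, 74 had over 90% of their counts in the NCI-H1581 variants and 77 in the NCI-H1703 variants. Their genes were not named, and whether they hold reads of the 6p21.3 members was not tested.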

How the results depend on the processing

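Of 287 member values recomputed under settings other than leaving out a replicate, 274 kept their direction and their side of the threshold. The members called in NCI-H1581R went from 2 to 1 with at least 10 counts in every library, as did those in the interaction, since NLRC5 was not tested there. In NCI-H1703R they went from 2 to 1 with a threshold of 0.05, RLE normalisation, no filter or a fit of all 8 libraries. All genes called went from 2743 to 1793 (threshold of 0.05) or 4539 (all 8 libraries) in NCI-H1581R, and from 2683 to 1640 (threshold of 0.05) or 1730 (all 8 libraries) in NCI-H1703R. The replicate block gave 6356 genes called in NCI-H1703R and changed the call of HLA-C there, and no other member's call. Direction turned for values near 0, namely the interaction of HLA-B, 0.0073 with DESeq2 and 0.0023 with RLE, and PSMB9 in NCI-H1703R, -0.024 with DESeq2, -0.011 with RLE, -0.0063 with the strict filter, -0.012 with legacy quasi-dispersions and -0.029 with all 8 libraries.

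Leaving out a replicate leaves a variant with 1 library, which is then assumed to vary like the other variant. Genes called ranged from 1128 to 5185 (NCI-H1581R), from 274 to 1686 (NCI-H1703R against its sensitive variant), from 6120 to 10361 between the resistant variants and from 1571 to 4141 in the interaction, and members called from 1 to 3 in the NCI-H1581 pair and from 0 to 1 in that of NCI-H1703. They reached 8 between the sensitive variants, where CD274 gained a call without replicate 1 of NCI-H1581, and 3 in the interaction, where TAPBP gained one without replicate 1 of NCI-H1703R. B2M was the gain in the NCI-H1581 pair. Uncalled log2 values that turned ranged in NCI-H1581R from -0.11 to 0.86 (HLA-C), -0.22 to 0.51 (B2M) and -1.15 to 4.66 (CD274), in NCI-H1703R from -1.20 to 0.39 (TAPBP), -0.11 to 0.41 (NLRC5) and -0.35 to 0.43 (PSMB9), between the resistant variants from -1.43 to 0.98 (CD274), and in the interaction from -0.34 to 0.24 (HLA-B), -0.65 to 0.33 (HLA-C) and -0.40 to 0.36 (B2M). For the other named genes, 51 of 196 values lost their call without a replicate, as did 8 of 310 under other settings, and none changed direction in either. The cause was not tested. Depth limits CD274 and NLRC5 in NCI-H1581R, which rest on at most 12 counts there.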
